A study of Mus musculus with 20 samples.

Results

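The corneal epithelium of mice at 12 months was compared with that of young mice, to see which genes had changed by the first of the 3 aged groups. The comparison took 10 of the 20 libraries of the study, 5 labelled 12-13 months and 5 labelled 2-3 months, with 1 animal per library. All animals were female, wild-type, naive C57BL/6J mice with no wound, treatment or transgene, and both groups share this. The epithelium of both corneas of an animal was debrided and pooled, and its RNA was sequenced from the poly(A) end with an oligo-dT kit. The mice were bought or aged in house or came from an institute's aged colony, and the labels do not say which source served which group. The groups keep the names young (2-month) and 12-month, and libraries are named by replicate number. Each level below is a normalized count, the reads of a gene divided by the size factor of its library, and each fold change is a difference of the mean log2(normalized count + 1) between 12 and 2 months with its standard error. A DEG had a limma adjusted p no higher than 0.05 and a fold change of 1.2 or more in either direction.

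The corneal epithelium is a stratified, non-keratinized sheet that renews itself from stem cells at the limbus. It rests on a basement membrane above the collagenous stroma, is continuous with the conjunctiva at its rim, and is bathed in tears made by lacrimal and other glands. Dense sensory nerve endings run between its cells. A scrape of this sheet can carry a few cells of any of these neighbours, whose RNA is then read with that of the epithelium.

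The libraries held 6699383 to 10762360 reads on genes, with a median of 8792912 in the young group and 7859652 at 12 months, and the 10 most abundant genes took 25.767% to 34.9% of the reads of a library. The label was checked against markers. *Krt12*, the keratin of the corneal epithelium, averaged 255490 ± 30298 normalized counts in young and 232471 ± 25866 in 12-month libraries (SD, n = 5), and *Pax6*, the transcription factor that specifies the eye, 4702 ± 744 and 4466 ± 623. *Hbb-bs*, the adult beta globin, and *Tff3*, a goblet cell peptide, had 0 reads in all 10 libraries, and *Muc5ac*, the goblet cell mucin, had 2 reads in 1 of them. The globin genes *Hbb-bt*, *Hba-a1* and *Hba-a2* had 0 reads too. How reads were divided among similar genes was not tested, so the globin counts are not a check for blood. Replicates of a group never agreed within sampling noise, since the chi-square per degree of freedom between them ran from 13.3 to 109. Young replicate 1 stood farthest from the other young libraries by this measure, and young replicate 4 had the lowest levels of several stromal genes and the highest of many gland genes.

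Of 11337 genes tested, 43 were DEGs (0.379%), 14 higher (0.123%) and 29 lower at 12 months (0.256%), and 856 had an unadjusted p below 0.05. In 41 of the 43 no library of one group lay within the range of the other, and the exceptions were *Col3a1* and *Alox15*. Among all genes tested, 103 (0.909%) were higher without overlap and 125 (1.1%) lower. The falls were led by secreted gland proteins and by matrix genes, and the rises by *Pdyn*, the precursor of the dynorphin opioid peptides. Collagens made up 4 of the 29 falls (*Col1a1*, *Col1a2*, *Col3a1* and *Col6a3*), and the other 39 DEGs are described below. The gene lists used below were written with earlier results of these data known. A count of DEGs in a list is therefore a description and not a test, to be read beside the 0.379% of all genes. Just inside the threshold lay *Scgb1b2* and *Alox15* with limma adjusted p-values of 0.0461 and 0.0454. Next came *Naaladl2*, *Clic6*, *Fxyd4* and *Cadm2*, tied at 0.0445. *Igfbp5*, *Clic4* and *Cpn1* lay just outside it at 0.0501, 0.0573 and 0.0619.

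Of the 43 DEGs, 11 were called under every one of 21 other fits, which changed the normalization, filter, model, pseudocount or libraries. These were *Col1a1*, *Col1a2*, *Fstl1*, *Sparc*, *Nt5e*, *Krt4* and *Wfdc18* among the falls and *Pdyn*, *Fmo2*, *Fam25c* and *Ddah1* among the rises. The sign of the fold change held for all 43 genes in these fits.

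Genes of secreted gland proteins made up 11 of the 12 largest falls other than collagens, and *Clic6*, described below, was the other. They belong to families that lacrimal, salivary and similar glands release into tears, saliva and other fluids. Lipocalins such as the odorant-binding proteins *Obp1a* and *Obp1b*, the major urinary protein *Mup4* and *Lcn11* are carriers of small hydrophobic molecules. Secretoglobins such as *Scgb1b2* and *Scgb2b2* are small secreted proteins that include the androgen-binding proteins of mice. *Pip* is the prolactin-inducible protein, *Car6* the secreted carbonic anhydrase and *Wfdc18* a protein with a whey acidic protein domain. *Gm5938* and *Gm14743* are placed with them because their upstream sequences are near copies of those of *Obp1a* and *Obp1b*.

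*Obp1a*, *Gm5938*, *Obp1b* and *Gm14743* lie in one stretch of the X chromosome, at chrX:78085505-78091374, chrX:78125467-78130403, chrX:78186808-78192242 and chrX:78240462-78245921 (GRCm38, RefSeq), and all were DEGs that fell. The 120 bases before the RefSeq start of each are shown because they fall into 2 pairs of near copies. Sequences are 5′ to 3′ on the strand of the gene (RefSeq, GRCm38.p6), with the TATA box (TATAAA) in capitals. The windows are chrX:78091375-78091494, minus strand, for *Obp1a*, chrX:78125347-78125466, plus strand, for *Gm5938*, chrX:78186688-78186807, plus strand, for *Obp1b*, and chrX:78245922-78246041, minus strand, for *Gm14743*.
Obp1a: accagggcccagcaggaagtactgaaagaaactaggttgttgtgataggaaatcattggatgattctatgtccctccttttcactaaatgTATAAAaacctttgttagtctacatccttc
Gm5938: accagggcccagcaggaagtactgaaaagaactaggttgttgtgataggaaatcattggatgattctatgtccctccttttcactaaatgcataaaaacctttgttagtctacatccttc
Obp1b: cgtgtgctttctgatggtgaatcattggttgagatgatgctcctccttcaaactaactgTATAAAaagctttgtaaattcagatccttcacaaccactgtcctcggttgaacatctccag
Gm14743: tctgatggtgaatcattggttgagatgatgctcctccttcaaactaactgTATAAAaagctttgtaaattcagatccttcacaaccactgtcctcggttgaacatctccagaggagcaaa

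Over the 250 bases before the start, *Obp1a* and *Gm5938* were identical at 92.4% of aligned positions, against 50.9% to 56.6% between the pairs. *Obp1b* and *Gm14743* were identical at 241 of 259 aligned positions (93.1%), and the rest were end gaps from an offset between their starts. Wherever both *Obp1b* and *Gm14743* had a base, the bases were the same. Within the 120 bases shown, *Gm5938* differed from *Obp1a* by 3 substitutions, G28A, A29G and T91C, counted from 1 at the 5′ end of the window with the base of *Obp1a* first. The last of these lies in the TATA box of *Obp1a*, and *Gm5938* has no match to TATAAA there. These bases are not in the reads. The transcripts of these genes were not compared, and how reads were divided among similar genes, *Mup4* and its family included, was not tested, so the counts of single genes here may be uncertain.

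In the young group, *Obp1a* had normalized counts of 328, 549, 1183, 7831 and 1724 in replicates 1 to 5, against 5.52, 2.63, 22.5, 44.1 and 40.8 in the 12-month libraries, a log2 fold change of −6.27 ± 0.75 (limma adjusted p = 0.000381). *Gm5938* had normalized counts of 66.9, 182, 363, 1677 and 394 in young replicates 1 to 5 and of 0, 0, 3.21, 0 and 1.27 in 12-month replicates 1 to 5, a change of −7.64 ± 0.72 (adjusted p = 2.38e-05). Young replicate 4 was the highest for both and young replicate 1 the lowest, and the groups did not overlap. *Obp1b* fell from 12.1, 55.5, 73.1, 275 and 43.6 to 0.919, 0, 0, 11.02 and 1.27, by 4.72 ± 0.88 on the log2 scale (adjusted p = 0.0208). *Gm14743* had 8.77, 37.5, 24.7, 358 and 54.1 in the young libraries and 0 reads in each 12-month library (adjusted p = 0.0133). Taking 3 reads per 12-month library as the limit that a count of 0 allows, *Gm14743* was at least 28.8-fold lower, or at least 9.33-fold lower without young replicate 4.

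Elsewhere in the genome the same kind of gene fell. *Mup4* (chr4:59956804-59960667) had normalized counts of 36.2, 92.2, 347, 1522 and 263 in the young and 0, 3.95, 0, 6.01 and 0 in the 12-month libraries (−6.74 ± 0.86, adjusted p = 0.000816). For *Lcn11* (chr2:25777017-25780279) the young libraries held 9.87, 30.7, 42.01, 266 and 21.8 and the 12-month libraries 0 reads each, at least 22.1-fold lower, or at least 7.79-fold without young replicate 4 (adjusted p = 0.0181). Both were highest in young replicate 4 and lowest in young replicate 1. *Car6* (chr4:150187015-150201135) went from 285, 253, 548, 2626 and 185 to 18.4, 42.1, 18.2, 92.2 and 62.4 (−3.53 ± 0.58, adjusted p = 0.00938), with young replicate 4 again the highest.

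*Pip* and the secretoglobins had another highest library, young replicate 5. *Pip* (chr6:41847549-41852065) had normalized counts of 13.2, 40.5, 67.6, 392 and 799 in young replicates 1 to 5 and 1.84, 0, 6.43, 0 and 0 at 12 months (−5.83 ± 0.98, adjusted p = 0.00946). *Scgb2b2* and *Scgb1b2* are neighbours on chromosome 7, 11 kb apart (chr7:31302769-31304977 and chr7:31290519-31291816). *Scgb2b2* had 52.6, 52.5, 51.1, 173 and 1283 against 4.60, 7.89, 7.50, 10.02 and 19.1 (−3.69 ± 0.72, adjusted p = 0.0299), and *Scgb1b2* 44.9, 49.5, 23.7, 142 and 654 against 5.52, 21.05, 0, 2.00 and 7.65 (−4.09 ± 0.87, adjusted p = 0.0461). For *Scgb2b2*, young replicate 5 alone held 79.6% of the summed young level, and for *Scgb1b2* 71.5%.

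*Wfdc18* (chr11:83709004-83711360) varied least among the young libraries. Its normalized counts were 308, 336, 410.0, 553 and 407 in young replicates 1 to 5 and 11.9, 32.9, 3.21, 24.1 and 33.1 in 12-month replicates 1 to 5, a log2 fold change of −4.51 ± 0.46 (limma adjusted p = 4.92e-05). The 5 young libraries lay within a narrow band, and each was several times higher than any 12-month library. Its upstream bases (chr11:83708884-83709003, plus strand) are shown for the same motif.
Wfdc18: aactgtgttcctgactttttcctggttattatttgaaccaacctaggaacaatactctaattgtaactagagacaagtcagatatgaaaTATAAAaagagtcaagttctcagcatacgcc

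**Figure D1:**
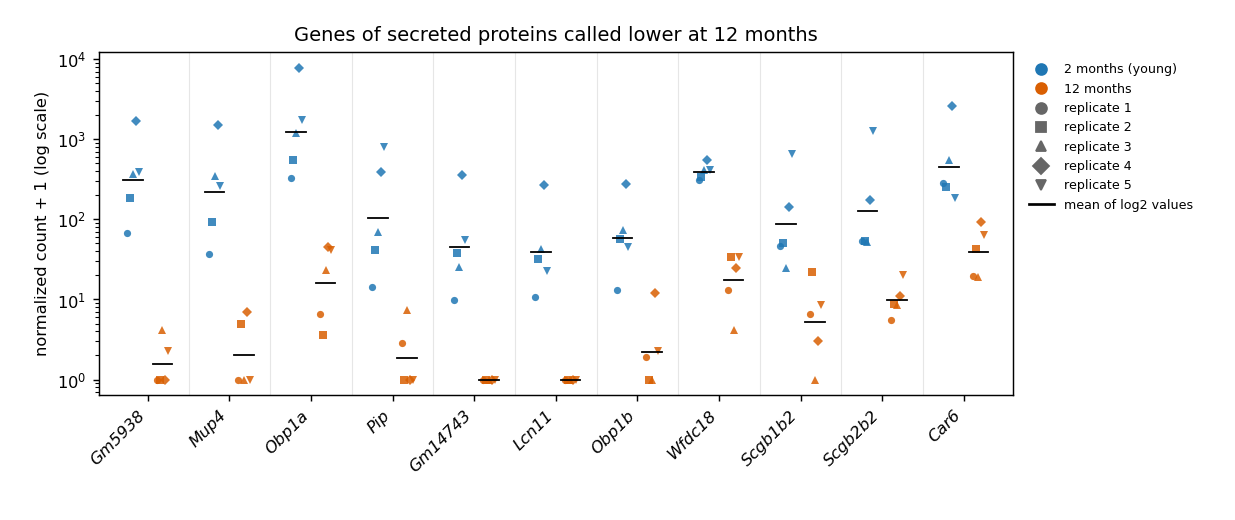
Normalized count plus 1 (log axis) of 11 called genes of secreted proteins in each young (blue) and 12-month (orange) library, with a marker shape for each replicate number and a bar for the mean of the log2 values. Young replicate 4 (diamond) is highest for 8 genes and young replicate 5 (lower triangle) for 3, while *Wfdc18* varies least among the young libraries.

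Among these 11 genes, young replicate 4 was the highest young library for 8, young replicate 5 for 3, and young replicate 1 the lowest for 8. Without young replicate 4, 5 of the 11 kept their call (*Gm5938*, *Obp1a*, *Mup4*, *Car6* and *Wfdc18*), and without young replicate 5, 7 did. With voom on the recovered reads, which weights low counts less, *Wfdc18* was the 1 gene of the 11 still called (adjusted p = 0.00109), and the others had adjusted p-values of 0.297 to 0.773. The list of gland secretion genes, written with earlier results known, had 17 members, of which 12 were tested, 7 fell and 0 rose. All 12 had a lower mean at 12 months (median log2 fold change −3.94, against −0.01 over all genes tested). Over all 11337 genes tested, 0.256% fell and 5862 had a lower mean. Members such as *Mup4*, *Pip*, *Lcn11* and *Bpifa2* averaged under 10 normalized counts at 12 months and passed the filter only through the young libraries. The filter fixed their direction, so the count of lower members and the median are descriptions and not a test. Summed over the list, young replicates 1 to 5 held 1586, 1911, 2933, 11762 and 8748 normalized counts and the 12-month libraries 473 to 558. *Bpifa2* and *Dmbt1*, members that were not DEGs, were each high in a single young library. *Bpifa2* had 0, 8.99, 5.48, 11.7 and 2653 in young replicates 1 to 5 (limma adjusted p = 0.566), and *Dmbt1*, below the filter, 0, 10.5, 2.74, 70.99 and 0, with 0 reads at 12 months (two-sided exact permutation p = 0.167). The part of gland tissue or fluid in the scrape was not tested. In bulk RNA, fewer cells of a type and less RNA per cell cannot be told apart.

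TATA boxes were counted as a description, as any TATAAA on either strand in the 250 bases before and 50 after the start, whatever the distance from it. They occurred in 11 of 24 promoters of falls (45.8%), in 1 of 10 promoters of rises (10%) and in 619 of 8940 promoters of the genes tested (6.92%). Of the 11, 8 belong to secreted proteins (*Gm14743*, *Mup4*, *Obp1a*, *Obp1b*, *Pip*, *Wfdc18*, *Scgb1b2* and *Scgb2b2*) and the rest to *Col3a1*, *Fscn1* and *Ifit1bl1*. The promoters of *Obp1b* and *Gm14743*, near copies of each other, were counted separately. Their matches began at −61 and −70 from the start. Those of *Obp1a*, *Wfdc18*, *Scgb1b2* and *Pip* nearest the start began at −30, −31, −29 and −28. The match of *Scgb2b2* was on the other strand.

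Genes typical of the conjunctiva fell in part. *Krt4* (chr15:101918535-101924735), a keratin of non-keratinized stratified epithelia, had normalized counts of 5337, 5281, 4751, 3170.3 and 4053 in young replicates 1 to 5 and 2491, 2047, 1475, 1865 and 2977 at 12 months. The groups did not overlap, with a log2 fold change of −1.07 ± 0.18 (limma adjusted p = 0.00946). *Clca3b* (chr3:144822623-144849302), of the chloride channel accessory family, had 356, 159, 286, 106 and 204 against 23.9, 36.8, 38.6, 71.1 and 82.8 (−2.13 ± 0.37, adjusted p = 0.0119), and it was a DEG in 18 of the 21 other fits. Of the 18 members of the list, 12 were tested, and *Krt4* and *Clca3b* were the DEGs, against 0.379% of all genes tested. In this list 2 genes had a higher and 10 a lower mean at 12 months. At an unadjusted limma p below 0.05 stood 6 of the 12, against 856 of the 11337 genes tested. The most abundant, *Krt13*, a partner of *Krt4* in filaments, averaged 32000.3 ± 7175 and 27808 ± 6100.4 (−0.20 ± 0.17, adjusted p = 0.857), and *Krt19* 1264 ± 384 and 723 ± 160.2 (−0.78 ± 0.20, adjusted p = 0.146). The median of the list was −0.62, and its summed level ran from 60051 to 83086 in the young and from 54122 to 79786 in the 12-month libraries. The 3 goblet cell mucin and peptide genes *Muc5ac*, *Muc5b* and *Tff3* were below the filter.

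*Fstl1* and *Sparc*, both on the list of stromal keratocytes, the matrix-making cells under the epithelium, fell beside the collagens, whose list of 22 tested genes had a median of −1.68. *Fstl1* (chr16:37777055-37836516), a secreted glycoprotein, had normalized counts of 179, 236, 247, 90.1 and 146 in young replicates 1 to 5 and 51.5, 28.9, 31.1, 29.1 and 36.96 at 12 months (−2.25 ± 0.31, limma adjusted p = 0.00131). *Sparc* (chr11:55394159-55420080), which binds collagen in the matrix, had 1369, 867, 878, 476 and 822 against 287, 234, 339, 196 and 335 (−1.61 ± 0.23, adjusted p = 0.00176). Neither overlapped between the groups, and young replicate 4 was the lowest young library for both. Of the 23 keratocyte genes other than collagens, 20 were tested, 2 fell, 0 rose, and 19 had a lower mean at 12 months, 8 of them without overlap (median −1.18). Over all 11337 genes tested, 0.256% fell, 5862 had a lower mean and 1.1% were lower without overlap. Members such as *Kera* averaged under 10 normalized counts at 12 months and passed the filter only through the young libraries, which fixed their direction. These counts are therefore a description and not a test. *Kera* and *Lum*, the defining keratocyte proteoglycans, were not DEGs. *Kera* had 42.8, 19.5, 36.5, 14.8 and 38.9 in the young and 0, 0, 5.36, 5.01 and 3.82 in the 12-month libraries (−3.36 ± 0.81, adjusted p = 0.107), and *Lum* 63.6, 77.2, 114, 57.2 and 51.2 and 45.96, 13.2, 23.6, 21.04 and 24.2 (−1.52 ± 0.39, adjusted p = 0.147). The summed level of the list was 4800 to 7701 and 4108 to 5719 normalized counts, ranges that overlap, and the part of stromal cells in the scrape was not tested.

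The remaining falls were of several kinds. *Nt5e* (chr9:88327609-88372089), the ecto-enzyme CD73 that makes adenosine from AMP, had normalized counts of 731, 619, 754, 344 and 697 in young replicates 1 to 5 and 246, 155, 135, 95.2 and 191 at 12 months. This was a log2 fold change of −1.95 ± 0.25 (limma adjusted p = 0.000894) without overlap, and it held in all 21 other fits. *Cdsn* (chr17:35543101-35557180), the corneodesmosin of shedding surface cells, had 73.4, 50.96, 111, 75.2 and 39.8 against 7.35, 11.8, 12.9, 1.00 and 17.8 (−2.91 ± 0.58, adjusted p = 0.0356). *Clic6* (chr16:92498147-92541241), of the chloride intracellular channel family, had 76.7, 49.5, 46.6, 33.9 and 47.4 against 4.60, 0, 8.57, 0 and 14.02 (−3.72 ± 0.78, adjusted p = 0.0445). Both rested on at most 121 reads per library, did not overlap, and kept their call in 9 of 20 and 8 of 20 other fits. *Fscn1* (chr5:142960355-142973189), the fascin that bundles actin in migrating cells, had 81.1, 94.4, 158, 206 and 83.5 against 26.7, 17.1, 41.8, 8.02 and 40.8 (−2.28 ± 0.44, adjusted p = 0.0258), and it was the 1 DEG among 25 tested genes of migration and actin bundling (median −0.20). Its call held in 12 of 21 other fits.

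*Alox15* (chr11:70344147-70390538), a lipoxygenase that makes lipid mediators, had 95.4, 286, 303, 128 and 154 in the young and 123, 40.8, 42.9, 37.1 and 38.2 in the 12-month libraries (−1.79 ± 0.38, adjusted p = 0.0454). 12-month replicate 1 lay within the young range, and the call held in 6 of 21 other fits. It was the 1 DEG of 12 tested genes of lipoxygenases and prostaglandins (median −0.22). *St3gal1* (chr15:67102875-67176946), which adds sialic acid to O-linked glycans, averaged 145 ± 22.3 and 64.04 ± 8.14 (SD, n = 5, −1.16 ± 0.23). *Clec2g*, a C-type lectin, averaged 444 ± 56.4 and 234 ± 56.6 (−0.94 ± 0.18), *AA467197* 883 ± 171 and 456 ± 94.98 (−0.96 ± 0.17), and the X-linked *Xlr4b*, of a family of similar genes, 333 ± 19.8 and 170.4 ± 49.2 (−1.01 ± 0.21). Their limma adjusted p-values were 0.0356, 0.0251, 0.0121 and 0.0437 in that order, and none overlapped between the groups. In the same order they were called in 8, 14, 19 and 8 of 21 other fits.

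*Ifit1bl1* (chr19:34592888-34662981), of the family of interferon-induced proteins with tetratricopeptide repeats, was the most abundant of the falls. It had normalized counts of 8319, 9364, 7131, 8025 and 7713 in young replicates 1 to 5 and 4629.9, 4637, 4935, 5699 and 5755 at 12 months, a smaller change of −0.66 ± 0.12 (limma adjusted p = 0.0121) that was called in 18 of 21 other fits. Of 33 interferon-stimulated genes tested it was the 1 DEG, and the median of the list was −0.03. The interferon-stimulated response element was searched on both strands as GAAA, any 2 bases and GAAA, which 2.90% of the 8940 promoters hold. Both of the 2 RefSeq promoters of *Ifit1bl1* hold a match to it, and bases of 1 of them (chr19:34601969-34602088, minus strand) are shown. The capitals mark that match, read on the other strand, and a TATA box.
Ifit1bl1: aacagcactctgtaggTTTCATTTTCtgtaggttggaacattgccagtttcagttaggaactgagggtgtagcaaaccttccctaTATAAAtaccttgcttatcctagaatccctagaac

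**Figure D2:**
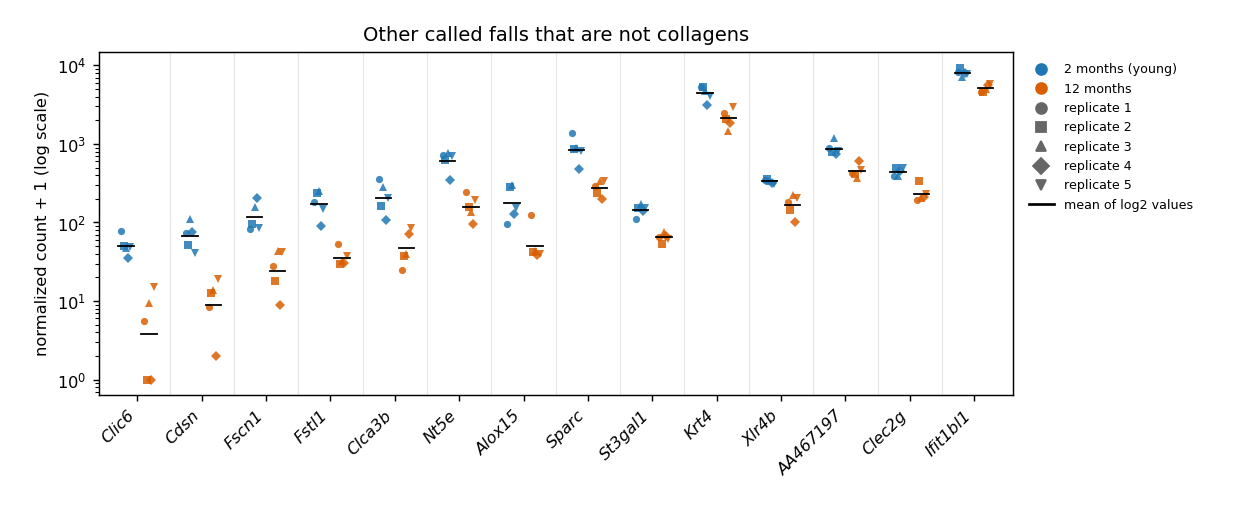
Normalized count plus 1 (log axis) of the 14 other called falls that are not collagens, in each young (blue) and 12-month (orange) library, with marker shapes for replicates and a bar for the mean of the log2 values. All genes but *Alox15* are separated between the groups, and *Ifit1bl1* and *Krt4* are the most abundant.

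Of the 14 rises, 4 were among the 30 tested genes of neural signals, receptors and adhesion, a list written with earlier results known. Over all genes tested, 0.123% were rises, and the count in this list is not a test. *Pdyn* (chr2:129686549-129699938) rose most. *Pdyn* had normalized counts of 54.8, 127, 84.02, 131 and 126 in young replicates 1 to 5 and of 513, 399.9, 429.6, 256 and 307 in 12-month replicates 1 to 5, without overlap, a log2 fold change of 1.89 ± 0.26 (limma adjusted p = 0.00131) that held in all 21 other fits. *Cadm2* (chr16:66655416-67620917), an adhesion molecule of synapses, had 145, 98.2, 99.5, 118 and 88.2 against 187, 437, 199, 209 and 260.0 (1.18 ± 0.25, adjusted p = 0.0445). *Ptprd* (chr4:75941237-78211742), a receptor tyrosine phosphatase that organizes synapses, had 634, 707, 590.0, 618 and 558 against 951, 1196, 1148, 926 and 1078 (0.77 ± 0.13, adjusted p = 0.01). These groups too were separate. *Naaladl2* (chr3:23798103-25144149) had 101, 94.4, 89.5, 96.4 and 119.5 against 172, 192, 211, 173 and 222 (0.95 ± 0.20, adjusted p = 0.0445). *Ptprd* was called in 20 of 21 other fits, *Cadm2* in 8 and *Naaladl2* in 5. In the list 30 genes were tested, 15 had a higher and 15 a lower mean, and the median was −0.03. *Oprk1*, the receptor on which dynorphins act, had 0 reads in all 10 libraries. Of 18 Schwann cell and axon genes, 7 were tested, 0 were DEGs and 1 had an unadjusted p below 0.05 (median −0.54), and *Prph* and *Nefl*, intermediate filament genes of axons, had 0 reads in all 10 libraries.

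Enzymes formed another set of rises. *Fmo2* (chr1:162874317-162898758), a flavin monooxygenase that oxidizes drugs and other foreign compounds, had normalized counts of 206, 102, 76.7, 129 and 166 in young replicates 1 to 5 and 399.8, 384, 293, 291 and 426 at 12 months (1.46 ± 0.24, limma adjusted p = 0.00946). *Ddah1* (chr3:145758692-145894277), which breaks down methylated arginines that inhibit nitric oxide synthase, had 525, 553, 329, 483 and 408 against 850.2, 1010.2, 917, 836 and 872 (0.98 ± 0.15, adjusted p = 0.0054). Both were separate between the groups and were called in all 21 other fits. *Upb1* (chr10:75406911-75441679), the last enzyme of pyrimidine breakdown, had 72.3, 86.9, 29.2, 68.9 and 90.1 against 190.3, 267, 168, 120.3 and 217 (1.51 ± 0.31, adjusted p = 0.0418), with young replicate 3 far below the other young libraries, and it was called in 9 of 21 other fits and in 2 of the 10 that left out a library. With *Upb1* and *Ddah1* as rises and *Nt5e* as a fall, 3 of 22 tested genes of nucleotide, arginine and lysosomal enzymes were DEGs (median 0.00). Over all genes tested the share was 0.379%. That list was written with earlier results known, so its count of DEGs is a description and not a test. *Fmo2* was the 1 DEG of 32 tested genes of xenobiotic and aldehyde metabolism, of which 23 had a higher mean at 12 months, 4 without overlap (median 0.28). In this list 13 of the 32 had an unadjusted limma p below 0.05, against 856 of the 11337 genes tested. The most abundant, *Gsto1* and *Aldh3a1*, differed by 0.10 ± 0.17 and 0.09 ± 0.16 on the log2 scale (adjusted p = 0.941 and 0.946).

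Among genes of the epithelial surface and matrix, *Fam25c* (chr14:34351882-34358339) had normalized counts of 725, 507, 764, 586 and 649.8 in the young and 1203, 1482, 1239.7, 1351 and 1351 in the 12-month libraries, separate groups and a log2 fold change of 1.05 ± 0.14 (limma adjusted p = 0.000894). It was called in all 21 other fits. *Tmprss11d* (chr5:86302854-86373387), a trypsin-like protease of airway and other epithelia, averaged 1734 ± 169 and 2696 ± 434 (0.63 ± 0.13, adjusted p = 0.0401). *Vit* (chr17:78508051-78627409), the matrix protein vitrin, had 123, 95.2, 60.3, 44.5 and 83.5 against 169, 154, 196, 239.5 and 241 (1.35 ± 0.27, adjusted p = 0.0363). *Vit* was called in 8 of 21 other fits and *Tmprss11d* in 9, and in 1 and 2 of the 10 that left out a library. With *Cdsn* as a fall and *Fam25c* and *Tmprss11d* as rises, 3 of the 22 tested genes of the cornified envelope and desquamation list were DEGs. Of its most abundant members, the keratins *Krt6b* and *Krt6a*, *Krt6b* averaged 82398 ± 3579.6 in young and 91589 ± 15447 in 12-month libraries (0.14 ± 0.14 on the log2 scale, limma adjusted p = 0.898), and *Krt6a* 69844 ± 11943 in young and 57363 ± 6342 in 12-month libraries (−0.28 ± 0.14 on the log2 scale, limma adjusted p = 0.678). *Krt6a* had no overlap between the groups although it was not a DEG.

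*Fxyd4* (chr6:117933558-117937714), a small regulator of the sodium-potassium pump, had normalized counts of 61.4, 22.5, 74.9, 31.8 and 46.5 in young replicates 1 to 5 and 142, 112, 159.6, 253 and 90.5 at 12 months (1.69 ± 0.35, limma adjusted p = 0.0445). In the list of ion, chloride and water transport 26 genes were tested, of which *Fxyd4* rose and *Clic6* and *Clca3b* fell. *Aqp5*, the water channel with the highest level in this list, averaged 16745 ± 1891 in young and 18325 ± 2707 in 12-month libraries (0.12 ± 0.13 on the log2 scale, limma adjusted p = 0.897). For *Fxyd4* the young maximum and the 12-month minimum were close, and the call held in 9 of 21 other fits.

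*Ccnd2* (chr6:127125162-127152188), a cyclin of the G1 phase, had 3944, 2925, 2392, 3488 and 2594 against 4947, 4929.9, 5024, 4399 and 5187 (0.70 ± 0.13, limma adjusted p = 0.0284). The groups were separate. *Slc25a4* (chr8:46207168-46211062), the ADP/ATP carrier of mitochondria, averaged 1719 ± 235 and 2724 ± 374 (0.66 ± 0.13, adjusted p = 0.0356), and *2410015M20Rik* (chr17:56607452-56609771), a subunit of the complex that shapes mitochondrial cristae, had 578, 605, 666, 640.0 and 817 against 998, 1196, 835, 1284 and 1319 (0.76 ± 0.15, adjusted p = 0.0356). In the list of mitochondrial carriers and oxidation these were the 2 DEGs of 31 tested, with a median of 0.01. *Ccnd2* was called in 12 of 21 other fits, *Slc25a4* in 9 and *2410015M20Rik* in 13.

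**Figure D3:**
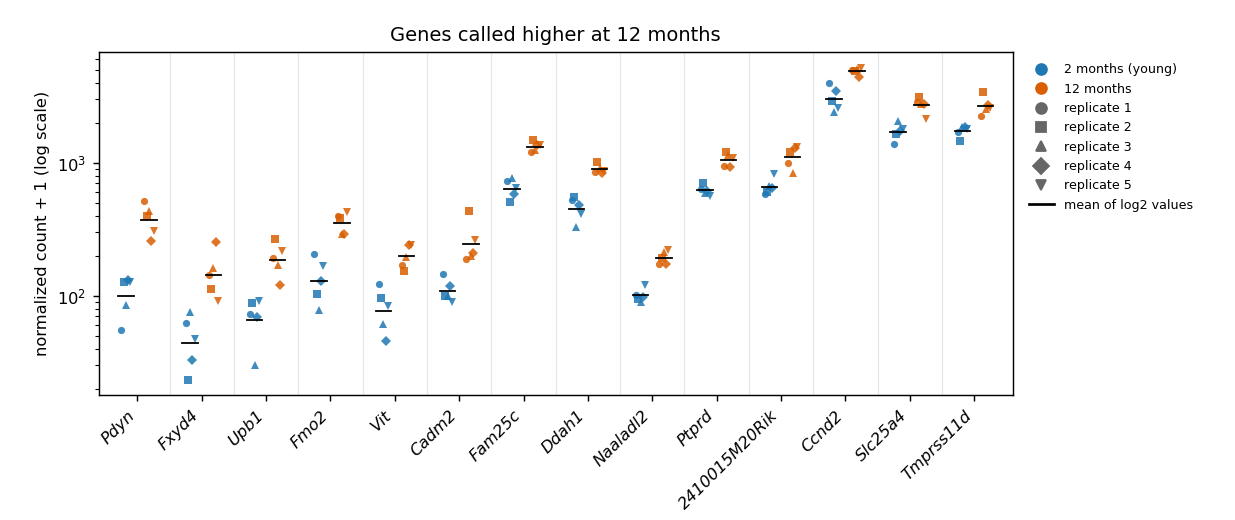
Normalized count plus 1 (log axis) of the 14 genes called higher at 12 months in each young (blue) and 12-month (orange) library, with marker shapes for replicates and a bar for the mean of the log2 values. In all 14 genes the 12-month libraries lie above the young libraries, and *Pdyn* has the widest gap between the means.

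Several gene groups had no DEG by limma, nor by voom, whose 16 calls were all among the 43. At an unadjusted p below 0.05, which 856 of the 11337 genes tested had, stood 5 of 22 epithelial transcription factors, 2 of 18 corneal epithelial, 1 of 8 limbal, 1 of 18 hemidesmosome, 2 of 26 cell junction, 3 of 14 retinoid, 0 of 12 Notch and 0 of 43 proteasome genes. Among the epithelial transcription factors, 1 was higher and 1 lower without overlap, against 0.909% and 1.1% of all genes tested. The lower one was *Zfhx4*, which averaged 125 ± 49.2 in young and 36.2 ± 18.5 in 12-month libraries. Its log2 fold change was −1.87 ± 0.42 (limma adjusted p = 0.0699). In the corneal epithelial list, 9 of 18 tested genes had a higher and 9 a lower mean (median −0.01). *Krt14*, a basal keratin, averaged 5992 ± 1273 in young and 4076 ± 485 in 12-month libraries (−0.54 ± 0.14 on the log2 scale, limma adjusted p = 0.173), without overlap, and *Aldh1a1*, a retinaldehyde dehydrogenase, 1219.6 ± 262 in young and 1817 ± 384 in 12-month libraries (0.58 ± 0.17 on the log2 scale, limma adjusted p = 0.247), with overlap. Its most abundant members after *Krt12* were *Aldh3a1*, above, and *Krt5*, the basal keratin, which averaged 64476 ± 8999.5 in young and 58732 ± 4665 in 12-month libraries (−0.13 ± 0.14 on the log2 scale, limma adjusted p = 0.899). Limbal genes had a median of 0.04 over 8 genes, and *Krt15*, the most abundant, averaged 65866 ± 10752 in young and 72096 ± 8915 in 12-month libraries (0.14 ± 0.15 on the log2 scale, limma adjusted p = 0.9). Hemidesmosome and basement membrane genes had a median of −0.04 over 18 genes, cell junction genes −0.03 over 26, epithelial transcription factors 0.01 over 22, Notch genes 0.06 over 12, retinoid genes 0.01 over 14 and proteasome genes 0.01 over 43, each with 0 DEGs. None of these medians was more than 0.1 from 0, while that of all genes was −0.01.

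Most clock genes and ribosomal protein genes had higher means at 12 months, and none was a DEG. Of 20 clock genes tested, 16 had a higher mean at 12 months (80%, against 48.3% of all genes), with a median log2 fold change of 0.30. *Hlf*, a clock-controlled transcription factor and the most abundant, averaged 6593 ± 468 in young and 7749 ± 572 in 12-month libraries (0.23 ± 0.11 on the log2 scale, limma adjusted p = 0.639). The summed level of the list was 12939 to 15388 in the young and 15932 to 18266 in the 12-month libraries, without overlap. At an unadjusted p, 8 of the 20 were under 0.05, and the hour of collection is not given in the sources used here. Of 77 cytosolic ribosomal protein genes tested, 63 had a higher mean (81.8%), 5 without overlap, with a median of 0.17. Their summed level was 263675 to 311061 in the young and 317350 to 357136 in the 12-month libraries, again without overlap. The median of the clock list stayed between 0.27 and 0.38 and that of the ribosomal list between 0.11 and 0.20 over the other fits, scalings included.

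Genes of the S to M phases of the cell cycle had 0 DEGs of 30 tested and 1 with an unadjusted p below 0.05, with 23 lower and a median of −0.17. *Top2a*, the most abundant, averaged 3198 ± 1053 in young and 2962 ± 793 in 12-month libraries (−0.08 ± 0.21 on the log2 scale, limma adjusted p = 0.966), and the summed levels overlapped (10298 to 18562 and 12809 to 15301). G1 cyclins and inhibitors had *Ccnd2* as the 1 DEG of 20 and a median of −0.01, with 10 higher and 10 lower. Their summed level was 16118 to 18368 in young and 20116 to 21473 in 12-month libraries. This sum includes *Ccnd2*, which averaged 3069 and 4897, and *Ccnd1*, which averaged 4175 ± 667 and 5878 ± 962. The change of *Ccnd1* was 0.49 ± 0.14 on the log2 scale (limma adjusted p = 0.229), with overlap. Heat shock chaperones (0.07, 20 genes) and immediate early genes (0.09, 15 genes) had 0 DEGs, and their summed levels overlapped. Of the heat shock genes, 1 was lower without overlap (*Hspa1a*, given below), against 1.1% of all genes tested. An effect of handling or stress was not tested. The median of the immediate early genes turned to −0.07 when reads were scaled to the library total. PPAR targets had a median of −0.01 over 25 genes and insulin and IGF genes −0.07 over 17, also with 0 DEGs. At an unadjusted p below 0.05 stood 6 PPAR target, 5 insulin and IGF, 1 heat shock and 2 immediate early genes, and 2 insulin and IGF genes were lower without overlap.

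Immune groups were lower in the mean without a DEG. At an unadjusted p below 0.05 stood 4 leukocyte, 4 MHC class II and 6 antimicrobial genes. Of 13 leukocyte genes tested, 10 were lower (median −0.65), of 6 genes of MHC class II presentation 4 (median −0.48), and of 11 antimicrobial genes 7 (median −0.59). *Ptprc*, the common leukocyte antigen CD45, had 10.96, 17.2, 23.7, 24.4 and 43.6 in young replicates 1 to 5 and 31.3, 7.89, 7.50, 10.02 and 7.65 at 12 months (−0.94 ± 0.59, limma adjusted p = 0.767). The groups overlapped, and the summed leukocyte level was 1439 to 2332 and 1326 to 2038. Of 16 vessel genes 3 were tested (median −1.40, 0 DEGs), and 4 of 5 red blood cell genes had 0 reads in all 10 libraries. The corneal endothelium list had a median of −0.03 over 6 genes. The 4 melanocyte genes tested had a median of 1.06 and 0 DEGs, and the highest library was 12-month replicate 3, where *Dct*, an enzyme of pigment synthesis, had 904 normalized counts against 46.6 to 109.6 in the other 9 libraries.

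**Figure D4:**
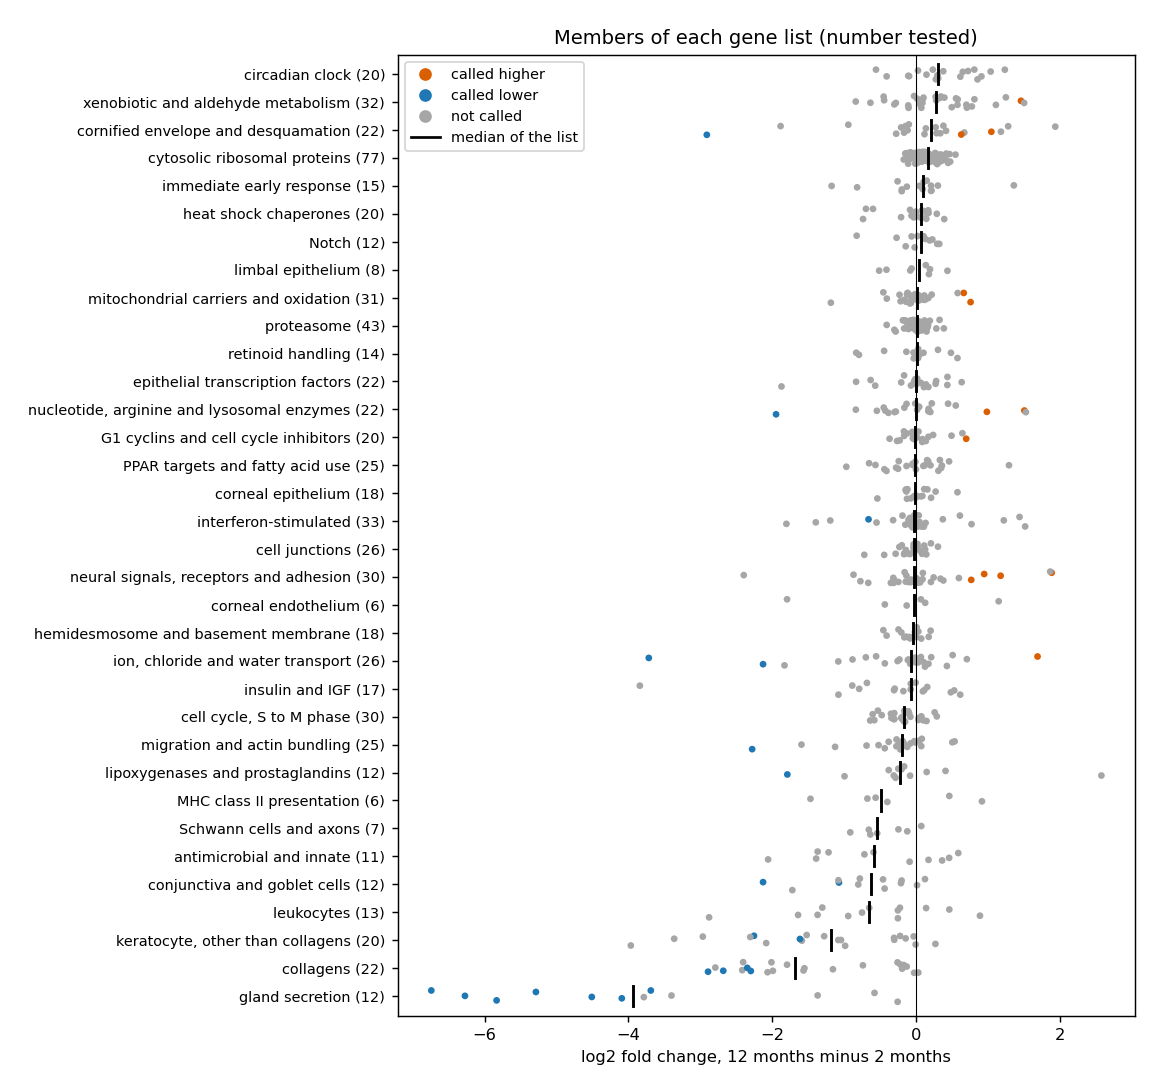
Log2 fold change of 12 months minus 2 months (horizontal axis) for each tested member of the lists with 5 or more tested genes, with called rises in orange, called falls in blue, other members in grey and a black bar at the median of each list. Gland secretion, collagens and keratocyte genes lie farthest to the left, and most lists centre near 0.

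The same genes were followed in the 18- and 24-month libraries of the study, in 1 fit of the 4 ages that tests 18 and 24 months against 12 months and so shares the 12-month libraries with the comparison above. Between 12 and 18 months 1 of 11288 genes was a DEG (0.00886%) and between 12 and 24 months 22 (0.195%). The 18-month and 24-month groups are again 5 female, wild-type, naive C57BL/6J mice each. Of the 43 genes, 0 were DEGs from 12 to 18 months by limma or voom, with 8 at an unadjusted p below 0.05, and 2 from 12 to 24 months, with 19. *2410015M20Rik* averaged 661 ± 93.3, 1126 ± 205, 821 ± 103 and 692 ± 75.2 normalized counts at 2, 12, 18 and 24 months, and fell by 0.69 on the log2 scale from 12 to 24 months (limma adjusted p = 0.0315). *Cadm2* averaged 109.7 ± 22.3, 258 ± 103, 171 ± 52.4 and 102 ± 45.6, and fell by 1.38 (adjusted p = 0.0419). At 24 months both had means near those of the young group. In 21 other fits of 24 against 12 months, *2410015M20Rik* kept its call in 9 and *Cadm2* in 8, and each did so in 2 of the 10 fits that left out a library, without 12-month replicate 1 or 3. Limma adjusted p-values in these fits reached 0.11 and 0.135. Both genes were called higher at 12 months from the same 12-month libraries.

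The other DEGs were not called between 12 months and a later age. *Pdyn* averaged 425 ± 151 at 18 and 413 ± 119 at 24 months, and *Nt5e* 284 ± 69.5 and 193 ± 68.5. *Lcn11* had 0 reads in every library of both later ages. *Wfdc18* averaged 90.1 ± 43.9 and 74.2 ± 36.5, a difference of 1.98 on the log2 scale between 24 and 12 months that just missed the threshold (adjusted p = 0.0501), as did *Xlr4b* (0.86, adjusted p = 0.0501). *Cdsn* averaged 17.2 ± 11.9 at 18 and 55.03 ± 42.5 at 24 months (24 against 12 months, adjusted p = 0.124).

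**Figure D5:**
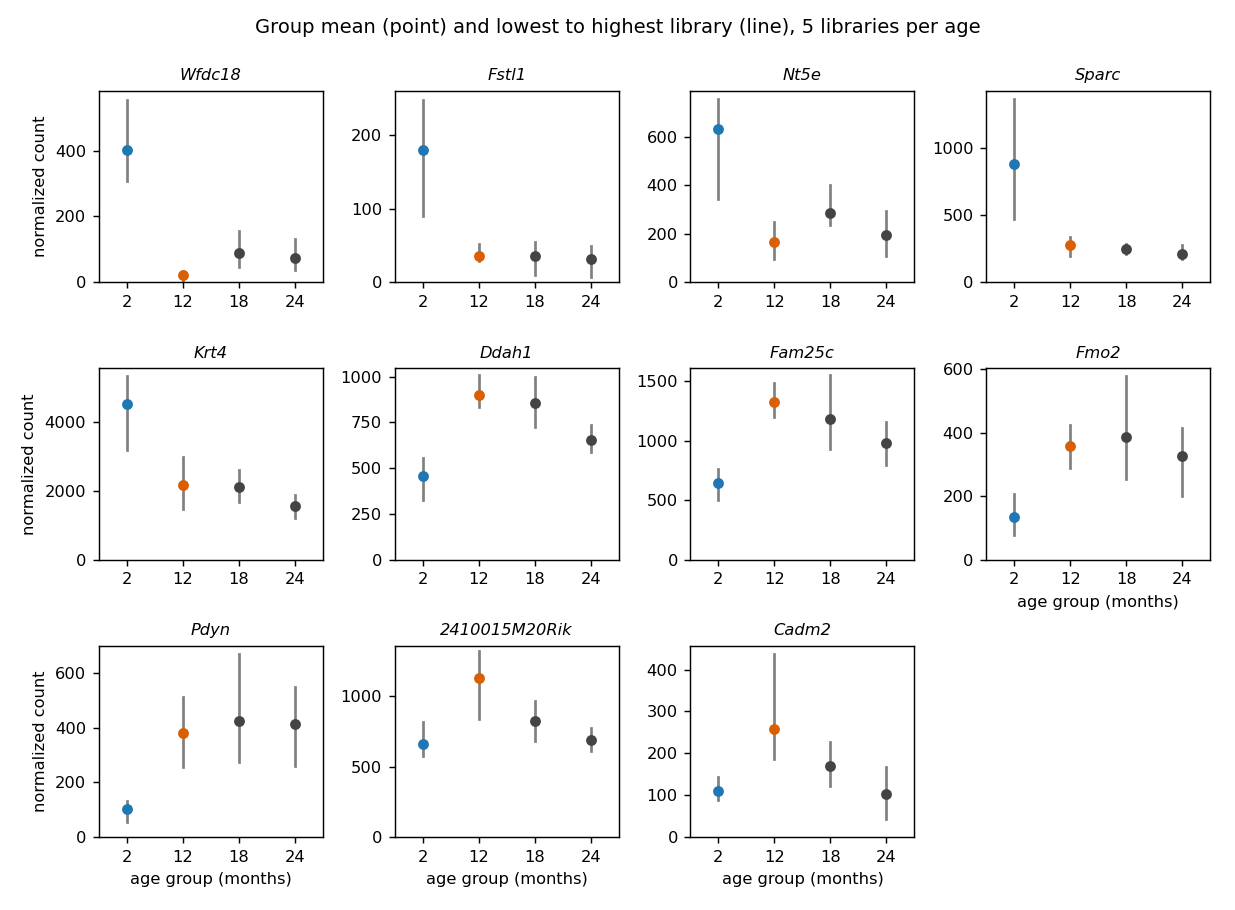
Normalized count (vertical axis, from 0) at 2, 12, 18 and 24 months for the 9 DEGs other than collagens called in every fit and the 2 that were also DEGs between 12 and 24 months. Points are means of 5 libraries and lines run from the lowest to the highest library. The means of *2410015M20Rik* and *Cadm2* at 24 months lie near those of the young group, while *Pdyn* and *Fmo2* stay near their 12-month level.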

How the data were processed

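RNA was measured in corneal epithelium of 20 female C57BL/6J mice, of which the 10 of the 2-3 and 12-13 month groups were compared. Per the authors' methods and the submitters' processing notes, reads were trimmed with cutadapt, checked with FastQC, aligned to GRCm38 (mm10) with STAR, counted with HTSeq and normalized with DESeq2. The deposited tables hold, per library, log2 values that the authors made from the normalized count plus 1. Their columns of mean signal, fold change, p-value and adjusted p-value of the authors' own comparisons were not used. Each value times the size factor of its library (0.7603 to 1.3343) gave a whole number of reads (100%, within 0.01), and the shared values of both tables used were equal. Of 24552 genes, 8429 had 0 reads in the 10 libraries.

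The 11337 genes whose normalized count averaged 10 or more were fitted with limma 3.58.1 in R 4.3.3, with a variance trend and Benjamini-Hochberg adjustment. The 2-group fit was the main one, and a fit of the 4 ages over 11288 genes gave 18 and 24 against 12 months. Fold changes on the log2(normalized count + 1) scale understate the change of low genes. At the depth of these libraries, a mean of 10 stands for few reads, and limits at 0 reads (3 per library) cover counting error only, since no molecular identifiers are named. Same-numbered libraries are different animals, with correlations of deviations of −0.289 to 0.0483. The p-values set the difference between the groups against the spread among these animals. The labels do not state litters, cages or sources, so age cannot be told apart from them.

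Python 3.11.15, numpy 2.4.6, pandas 2.3.3, Biopython 1.88 and matplotlib 3.10.9 were used. The statistics were tested on simulated data. Other normalizations, filters, pseudocounts and models, voom on the recovered reads in place of a count test, and leaving out each library in turn were tried as alternatives. The 37 gene lists, the members and the thresholds for naming were chosen with earlier results of these data known. The rule names all DEGs, gives every-library values for the 12 largest rises and 12 largest falls without overlap other than collagens, and names up to 3 of the most abundant members of a list, its defining markers and the 3 genes on each side of the threshold. *Oprk1*, *Prph*, *Nefl*, *Muc5b*, *Dmbt1*, *Krt14*, *Aldh1a1*, *Zfhx4* and *Ccnd1* were named after their values were seen. Positions (11104 of the 11337 genes) and promoters (8940 genes, 34 of the 43 DEGs) came from RefSeq, GRCm38.p6. On both strands, the E-box (CACGTG), the D-box (TTATGTAA or TTACGTAA) and the heat shock element (3 inverted GAA units, 2 bases apart) were also searched, and were found in 10.3%, 0.660% and 0.391% of promoters. The E-box was in 3 promoters of DEGs (*Cadm2*, *AA467197* and *Car6*), and the others in 0.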

Additional observations from a re-analysis of the deposited data

Results flagged for a closer look

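Among 160 groups of 5 libraries (43 genes and 37 list levels in both ages), 5 held a library far from the other 4, and chance gives about 1 in 20. *Nt5e* had 344 normalized counts in young replicate 4, the lowest young library, and *Upb1* 29.2 in young replicate 3. *Alox15* had 123 in 12-month replicate 1, within the young range. The summed melanocyte level was 1107 normalized counts in 12-month replicate 3, most of it from *Dct*, and that of cytosolic ribosomal proteins was 357136 in 12-month replicate 1. The cause was not tested for any of these.

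For 2 genes the level at 24 months differed from that at 12 months in the fit of the 4 ages, but each kept this call in 2 of the 10 fits that left out a library. Both had been called from the same 12-month libraries. The difference was −0.69 on the log2 scale for *2410015M20Rik* and −1.38 for *Cadm2* (limma adjusted p = 0.0315 and 0.0419). In the 24-month group the means were 692 ± 75.2 and 102 ± 45.6 normalized counts (SD, n = 5).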

How the results depend on the processing

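The count of 43 DEGs between 12 and 2 months was within 1.5 times of itself with quantile normalization, scaling to the library total, no filter, a filter at 50, a fit of the 4 ages, a pseudocount of 10, fold thresholds of none or 1.5, and removal of the trend on GC content and length, which was chosen after seeing the data. It was 28 with a pseudocount of 0.1, 16 with voom, 65 with array weights and 22 with the replicate block, which kept 20 of the 43, although the numbers do not pair animals. Without 1 library it ran from 20 to 54, and it fell by more than 1.5 times without young replicates 2 (20), 3 (26), 4 (25) or 5 (21) or 12-month replicate 2 (22). The split moved from 32.6% of calls higher to 17.1% without a filter, 22.7% with the replicate block and 41.7% in a fit of the 4 ages, and ran from 20% (without 12-month replicate 5) to 42.6% (without young replicate 1) when 1 library was left out. Of the single genes and list medians recomputed, 0 calls reversed in sign, 268 of the gene fits lost a call, and 15 of 775 list medians moved by more than the spread between libraries.

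Between 18 and 12 months the 1 call was 0 with quantile normalization, scaling to the library total, no filter, a filter at 50, a fit of 2 groups, the replicate block, a pseudocount of 10 or voom, and 0 to 3 without 1 library (3 without 12-month replicate 1, 1 without 18-month replicate 1, 0 without any other). Where limma called 0, 585 to 1078 genes had an unadjusted p below 0.05. Between 24 and 12 months the 22 calls became 12 with scaling to the library total, 0 without a filter, 35 with a filter at 50, 11 with a fit of 2 groups, 11 with the replicate block and 57 with array weights. Without 1 library they ran from 0 to 68. They were 68 without 12-month replicate 1, 1 without 12-month replicate 2, 3 without 12-month replicate 4 and 0 without 12-month replicate 5. Leaving out 24-month replicates 1, 2, 3 or 5 gave 0 and replicate 4 gave 1. Where limma called 0, 1206 to 1915 genes had an unadjusted p below 0.05. The cause was not tested. Depth limits the falls of *Gm14743* and *Lcn11*, at 0 reads in every 12-month library, to lower bounds.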

Other observations

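*Cdkn2a*, which encodes the cell cycle inhibitor p16 that accumulates in senescent cells, was below the filter and was named after its values were seen. It had normalized counts of 0, 0.749, 3.65, 1.06 and 3.79 in young replicates 1 to 5 and 15.6, 14.5, 9.64, 6.01 and 20.4 in 12-month replicates 1 to 5. These stand for 0 to 4 reads and 6 to 17 reads, without overlap. The difference of mean log2 values was 2.46.

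*Tef* and *Hspa1a* were also named after their values were seen. *Tef*, a clock-controlled transcription factor, had 842, 613, 384, 516 and 449 against 907, 852, 1001, 866 and 1137 (0.81 ± 0.18, limma adjusted p = 0.0737). *Hspa1a*, a chaperone induced by heat and stress, had 1318, 1662, 1555, 1547 and 1615 against 1065, 1110.2, 1282, 822 and 855 (−0.60 ± 0.14, adjusted p = 0.0888). Neither overlapped between the groups and neither was a DEG.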
